A study of Mus musculus with 6 samples.

Results

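The kidney filters amino acids freely into the tubular fluid, and the proximal tubule takes nearly all of them back. Sodium-coupled carriers and exchangers in the brush border bring them into the cell, and a separate set of exchangers in the basolateral membrane passes them on to the blood. Several of these carriers are heteromers, in which a light chain that moves the amino acid is held in the membrane by a heavy chain. The 9 genes described here were chosen by symbol: Slc6a18 (XT2, also called B0AT3) and Slc6a19 (B0AT1), the brush-border carriers for neutral amino acids; Slc1a1 (EAAT3), the brush-border carrier for glutamate and aspartate; Slc7a9 (b0,+AT) and its heavy chain Slc3a1 (rBAT), which take up cystine and dibasic amino acids; Slc7a7 (y+LAT1) and Slc7a8 (LAT2), basolateral light chains that share the heavy chain Slc3a2 (4F2hc); and Slc6a13 (GAT2), a basolateral carrier for GABA, betaine and taurine. All 9 were among the 46095 genes of the deposited table, and all 9 passed the filter on low counts that left 14611 genes for testing.

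RNA was sequenced from PTECs, renal tubular epithelial cells used fresh after isolation from 10-week-old mice on a C57 background. Replicates 1, 2 and 4 carried the label VHL-KO, and another 3 libraries (numbered 2, 3 and 4, called double-KO here) the label VHL-KO;SETD2-KO. In both groups a Cdh16-cre transgene (KspCre), active in tubular epithelium, was combined with VHL fl/fl, and only the second group carried Setd2 fl/fl as well, so that VHL deletion was common to all 6 libraries and no library came from a wild-type kidney. The comparison asks how loss of Setd2, the enzyme that trimethylates H3K36, changes tubular cells that already lack VHL. Cre acts only where Cdh16 is active, so transcripts of other cells in the isolate carry intact alleles. The share of cells in which Cre acted, in the proximal tubule or elsewhere, was not measured here.

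The libraries held 11168552 to 17883466 counts. A signal of 3 counts, the smallest taken as detectable, corresponded to 0.168 to 0.269 CPM of these totals. The other CPM values use scaled library sizes, so 3 counts can print as a slightly different CPM. Every member lay far above this floor, with at least 380 counts in every library, so depth did not limit their detection. Setd2 did not check the labels: it was 71.4, 73.8 and 12.3 CPM for the VHL-KO label and 79.5, 57.2 and 89.5 CPM for the double-KO label, a log2 fold change of 0.52 ± 0.64 (SE, edgeR adjusted p = 0.787), and it is not known whether the deleted part of the gene is what the counts cover. Each direction given below therefore runs between libraries as labelled. VHL-KO replicate 4 stood apart, with rank correlations of 0.717 to 0.765 with the other libraries, against 0.937 to 0.986 among the rest, and with 11.3% of its counts on mitochondrial genes against 25.9% to 36.4% elsewhere. Double-KO replicate 3 differed in Xist, at 11704 counts against at most 4 in any other library. Its rank correlations with libraries other than VHL-KO replicate 4 lay within the range of 0.937 to 0.986. The labels used here give no sex, and the part of sex in the differences was not tested. Member values are given with and without these 2 libraries, and for several lists so are counts and medians. Proximal tubule markers were abundant but not alone: the 14 proximal tubule markers summed to between 8733 and 32130 CPM, while podocyte and endothelial markers were present in every library.

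To show how the start region of the member with the smallest p differs from those of its partners, the 110 bases before the transcription start of the heavy chain Slc3a1, of its light chain Slc7a9 and of the other heavy chain, Slc3a2, are given from RefSeq (GRCm38.p6), 5′ to 3′ on the strand of the gene. They lie at chr17:85028237-85028346 (plus strand), chr7:35448982-35449091 (plus strand) and chr19:8713898-8714007 (minus strand). Capitals mark matches to an HNF4 site (CAAAGTCCA), a TATA box (TATAAA) or a GC box (GGGCGG), searched on both strands.
Slc3a1: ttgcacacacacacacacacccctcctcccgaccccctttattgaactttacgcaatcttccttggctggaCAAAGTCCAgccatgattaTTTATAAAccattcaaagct
Slc7a9: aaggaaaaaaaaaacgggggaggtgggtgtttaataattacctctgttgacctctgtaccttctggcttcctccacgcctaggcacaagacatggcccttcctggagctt
Slc3a2: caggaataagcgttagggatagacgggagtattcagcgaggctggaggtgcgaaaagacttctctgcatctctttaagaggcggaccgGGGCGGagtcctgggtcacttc

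The run TTTATAAA in Slc3a1 is TATAAA on one strand overlapping its own reverse complement. Over the whole windows of 250 bases before and 50 after a start site, the HNF4 letters were present in 0.475% of 32851 RefSeq windows and the TATA letters in 13.6%, and among the 8 members with a window (1 window each, the one nearest to the annotated gene start) only Slc3a1 held either. The GC box letters, in 35.7% of windows, were in Slc7a7, Slc7a8, Slc3a2, Slc1a1 and Slc6a13, and an ATF4 and C/EBP site (TTGCATCA, 0.895% of windows) was in Slc7a7. An HNF1 half-site (GTTAAT, 7.1% of windows) was in Slc3a1 alone. These are matches of letters, not sites shown to be bound. Slc6a18 had no entry. The RefSeq starts used for Slc3a2 (8713897) and Slc6a19 (73692636) lie inside the GENCODE M21 genes, which begin on the minus strand at 8723369 and 73704865.

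All 9 members had lower mean levels in the double-KO than in the VHL-KO libraries, by 1.24-fold (Slc7a8) to 2.80-fold (Slc6a13), although Slc7a8 turned slightly higher when library sizes were taken without mitochondrial genes or without the 20 highest genes. The median log2 fold change of the 9 was -0.92, beside 0.01 over all tested genes, of which 49.5% were lower. At an unadjusted p under 0.05 with a change of at least 1.5-fold, 2 members were called lower, Slc3a1 and Slc6a18, and 0 higher, where 4.68% of all tested genes were called lower and 2.65% higher. Calls below use this unadjusted threshold unless adjustment is named. None of the 9 passed after Benjamini-Hochberg adjustment over all tested genes (edgeR adjusted p of 0.625 to 0.836), and only 1 gene in the table did (0.00684%). For 3 members, Slc3a1, Slc6a18 and Slc1a1, every double-KO library lay below every VHL-KO library, against 11.0% of all tested genes (9.62% were separated in the other direction). In bulk samples such as these, fewer proximal tubule cells and less of a transcript per cell cannot be told apart.

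**Figure D1:**
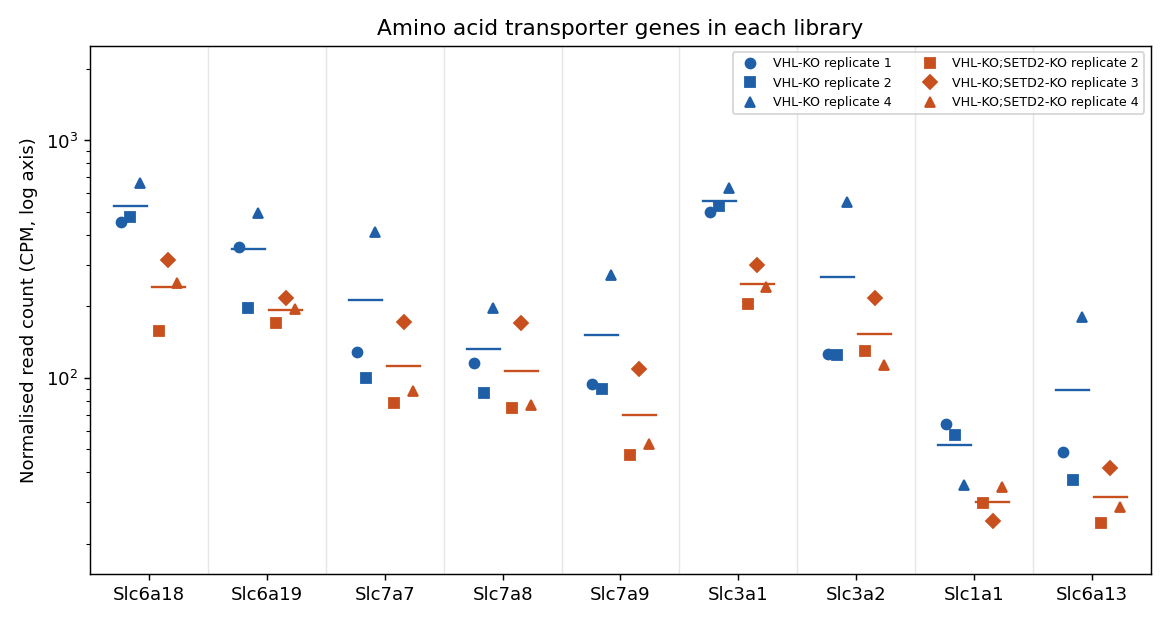
Normalised read count (CPM, log axis) of the 9 transporter genes in each library, with blue for VHL-KO, orange for VHL-KO;SETD2-KO, a marker shape for each replicate number and a line at each group's mean. Slc6a18, Slc3a1 and Slc1a1 are the genes whose groups do not overlap, and VHL-KO replicate 4 is the highest library for 8 of the 9.

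Among the brush-border carriers for neutral amino acids, Slc6a18 was present at 453, 476 and 664 CPM in VHL-KO replicates 1, 2 and 4 and at 158, 314 and 251 CPM in double-KO replicates 2, 3 and 4. The highest double-KO library, replicate 3, stayed below the lowest VHL-KO library. The group means were 531 ± 116 and 241 ± 78.4 CPM (SD, n = 3 each), a log2 fold change of -1.14 ± 0.45 (SE, edgeR adjusted p = 0.625). Slc6a18 lies on chromosome 13 (73661752-73678023, minus strand, GRCm38) and takes up mainly glycine and other small neutral amino acids in the late proximal tubule.

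Slc6a19, which lies 1.72 kb away on the same strand (73679745-73704865) and is the main neutral amino acid carrier of the early proximal tubule, whose human counterpart is mutated in Hartnup disorder, was at 356, 196 and 494 CPM in the VHL-KO and 171, 217 and 195 CPM in the double-KO libraries. The groups overlapped, because VHL-KO replicate 2 lay within the range of the double-KO libraries. Its log2 fold change of -0.85 ± 0.47 (SE) missed the threshold (edgeR adjusted p = 0.625).

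Slc3a1, the heavy chain mutated in type I cystinuria (chromosome 17, 85028376-85064236, plus strand), was at 501, 529 and 632 CPM in the VHL-KO libraries and at 204, 299 and 241 CPM in the double-KO libraries. It was the most evenly expressed member within the VHL-KO group, and the gap between the groups was wide. Means were 554 ± 68.9 and 248 ± 48.0 CPM (SD, n = 3 each) and the log2 fold change was -1.16 ± 0.41 (SE, edgeR adjusted p = 0.625), rank 365 of all tested genes by p. In the GENCODE M21 annotation 601 of its 2271 exonic bases (26.5%) are shared with Prepl on the other strand. Whether the counting used strand is not given in the sources used here. Prepl itself was low, at 13.0 to 33.8 CPM, with a log2 fold change of 0.10 ± 0.45 (SE, edgeR adjusted p = 0.939).

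Its light chain Slc7a9 (chromosome 7, 35448796-35466036, plus strand), the transporting subunit for cystine, arginine and lysine, was at 94.1, 89.6 and 272 CPM in the VHL-KO and 47.6, 109 and 52.7 CPM in the double-KO libraries. Replicate 4 of the first group and replicate 3 of the second were both 2 to 3 times the rest of their group (2.96 and 2.17 times), and the groups overlapped. The log2 fold change, -1.12 ± 0.59 (SE, edgeR adjusted p = 0.625), was close in size to that of Slc3a1 with a wider error.

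Slc1a1, the brush-border carrier for acidic amino acids (chromosome 19, 28835049-28913960, plus strand), was at 64.2, 57.6 and 35.5 CPM in the VHL-KO and 29.8, 25.1 and 34.9 CPM in the double-KO libraries. It was the only member whose lowest VHL-KO value came from replicate 4, and that value exceeded double-KO replicate 4 by less than 1 CPM, so the separation of the groups rests on a small gap. The log2 fold change was -0.81 ± 0.40 (SE, edgeR adjusted p = 0.625). It is also the longest member, with 8257 exonic bases, of which 31.9% are shared with 4430402I18Rik on the other strand, a gene at 2.82 to 5.88 CPM.

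On the basolateral side the groups overlapped for every member. Slc7a7, the light chain for export of dibasic amino acids that is mutated in lysinuric protein intolerance (chromosome 14, 54369442-54417780, minus strand), was at 128, 99.8 and 413 CPM in the VHL-KO and 78.5, 171 and 87.9 CPM in the double-KO libraries. The 2 highest values came from VHL-KO replicate 4 and double-KO replicate 3, and the log2 fold change of -0.92 ± 0.64 (SE, edgeR adjusted p = 0.656) did not pass. It shares 232 exonic bases (7.0%) with Oxa1l on the other strand.

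Slc7a8, a broad exchanger of neutral amino acids that lies 304 kb from Slc7a7 (54722209-54781946, minus strand), was at 115, 86.7 and 197 CPM against 74.5, 171 and 77.0 CPM. Double-KO replicate 3 was higher than all but 1 VHL-KO library, and this member had the smallest difference of the 9 in the test of all 6 libraries (log2 fold change -0.31 ± 0.52, SE, edgeR adjusted p = 0.836).

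Slc3a2, the heavy chain of both exchangers (chromosome 19, 8706882-8723369, minus strand), was at 126, 125 and 550 CPM in the VHL-KO and 130, 216 and 114 CPM in the double-KO libraries. VHL-KO replicates 1 and 2 lay within the range of the double-KO group, so the lower mean of the latter rests on VHL-KO replicate 4 alone, which was 4.39 times the mean of its companions. The log2 fold change was -0.80 ± 0.67 (SE, edgeR adjusted p = 0.702).

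Slc6a13 (chromosome 6, 121300227-121337733, plus strand), the basolateral carrier for GABA and related compounds, was at 49.0, 37.2 and 180 CPM against 24.5, 41.9 and 28.6 CPM. VHL-KO replicate 4 again stood alone, at 4.17 times the mean of its companions, and double-KO replicate 3 exceeded VHL-KO replicate 2. This gave the largest fold among the members with a wide error, -1.49 ± 0.65 on the log2 scale (SE, edgeR adjusted p = 0.625).

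Levels were compared between members per kb of exonic length. In the VHL-KO libraries Slc3a1 was highest, at 244 ± 30.3 CPM per kb (SD, n = 3), followed by Slc6a18 at 120 ± 26.2, and their ranges did not overlap. Slc3a2, Slc6a19, Slc7a7, Slc7a9, Slc6a13 and Slc7a8 followed, from 75.5 down to 26.6 CPM per kb, each overlapping its neighbour in this order. Slc1a1 was lowest, at 6.35 ± 1.82 CPM per kb, below the range of Slc7a8. In the double-KO libraries the order was the same except that Slc7a8 (21.5 ± 11) stood above Slc6a13 (10.9 ± 3.13), and here their ranges did not overlap. Slc3a1 was again highest, at 109 ± 21.1 CPM per kb, and Slc1a1 lowest, at 3.62 ± 0.595.

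VHL-KO replicate 4 was the highest of all 6 libraries for 8 members, and double-KO replicate 2 the lowest for 7. In VHL-KO replicate 4, levels moved with transcript length across the table: compared with the mean of VHL-KO replicates 1 and 2, the median log2 difference was 0.93 over the shortest 4598 genes (up to 3135 exonic bases), 0.20 over the middle 4592 and -1.17 over the longest 4596 (from 5753 bases). The members followed only in part. Slc1a1, in the longest class, was lower there by 0.77 on the log2 scale, but Slc3a2 (2.13) and Slc7a7 (1.87), of middle length, exceeded Slc3a1 (0.30), the shortest member. The part of length in the members' differences was not tested.

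Without VHL-KO replicate 4, Slc3a1, Slc6a18 and Slc1a1 were called lower at an unadjusted p (log2 fold changes of -1.06, -0.95 and -1.03, edgeR adjusted p = 0.0921, 0.172 and 0.0775), where 7.14% of all genes were, whereas Slc3a2 (0.29) and Slc7a8 (0.08) changed sign and Slc7a7 (-0.02) came close to 0. Slc6a19 (-0.51), Slc6a13 (-0.45) and Slc7a9 (-0.40) lay between and were not called, and differences between members were not tested. DESeq2 without this library called Slc3a1, Slc6a18 and Slc1a1 lower after adjustment, against 4.71% of all genes. Limma-voom with quality weights, which gives such a library less weight, called these 3 and also Slc7a9 and Slc6a13, against 8.25%. Without double-KO replicate 3 instead, 7 of 9 members were lower without overlap, where 18.9% of genes were. Leaving out double-KO replicate 2 or 4 left 0 members called, where the share of all genes called lower was also down, to 1.37% and 1.78%. Leaving out VHL-KO replicate 2 left 1 member called, against 7.11% of genes.

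With both libraries left out, an alternative chosen after the data had been seen that leaves 2 libraries against 2, 5 members were called lower by edgeR, unadjusted and adjusted (10.4% and 7.90% of all genes), namely Slc3a1 (log2 fold change -1.21 ± 0.13, SE, adjusted p = 0.00597), Slc7a9 (-0.87 ± 0.12, adjusted p = 0.00654), Slc1a1 (-0.91 ± 0.13, adjusted p = 0.00743), Slc6a18 (-1.19 ± 0.22, adjusted p = 0.0136) and Slc6a13 (-0.70 ± 0.17, adjusted p = 0.0309). Under this choice 8 members were lower without overlap, as were 32.4% of genes, while 4818 of 14732 genes were higher without overlap. Slc3a2 was at -0.04 ± 0.12 (adjusted p = 0.857). Slc6a19 (-0.60 ± 0.26, adjusted p = 0.157), Slc7a7 (-0.46 ± 0.15, adjusted p = 0.0794) and Slc7a8 (-0.42 ± 0.16, adjusted p = 0.105) were lower without passing.

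**Figure D2:**
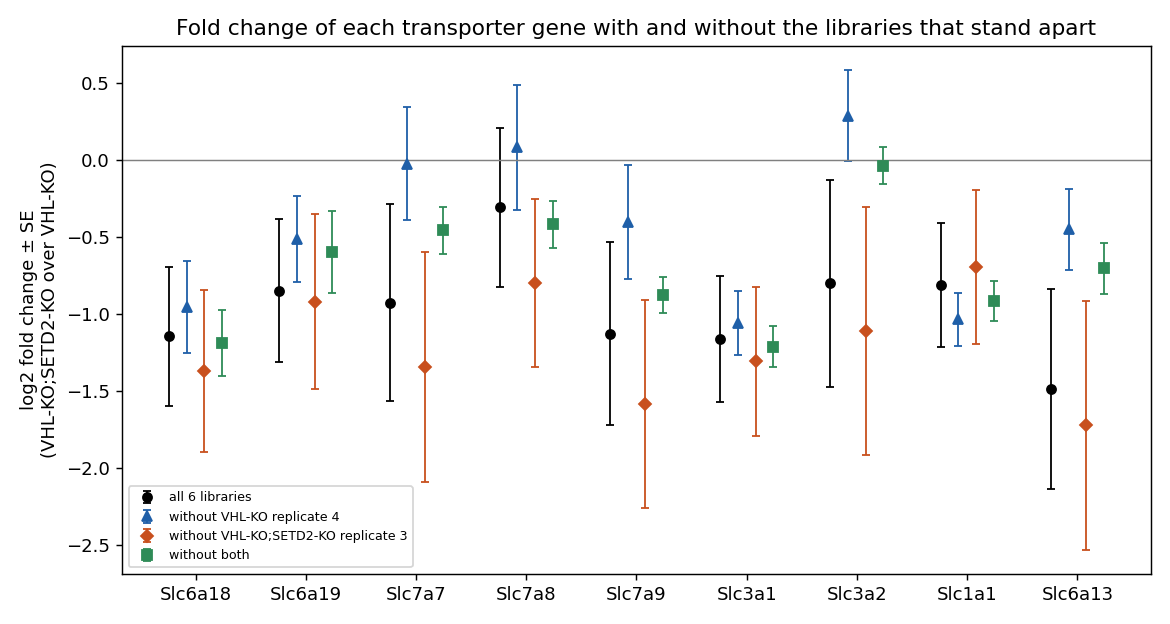
Log2 fold change of each member (VHL-KO;SETD2-KO over VHL-KO) with its standard error, from all 6 libraries (black), without VHL-KO replicate 4 (blue), without VHL-KO;SETD2-KO replicate 3 (orange) and without both (green). Of the 9 members 7 stay below 0 in all the fits shown, while Slc3a2 lies at 0.29 and Slc7a8 at 0.08 without VHL-KO replicate 4.

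A ratio between 2 genes of the same library does not depend on how that library was scaled, so the subunits that form a transporter were compared in this way. With 3 libraries against 3 the smallest two-sided p that the exact permutation test can give is 0.1, and none of the 5 pairs reached it (adjusted p of 0.833 to 0.9 over the 5). The log2 ratio of Slc3a2 over Slc3a1, the heavy chains of the basolateral and brush-border carriers, was -1.99, -2.09 and -0.20 in the VHL-KO and -0.65, -0.47 and -1.09 in the double-KO libraries. VHL-KO replicates 1 and 2 lay below all double-KO libraries and replicate 4 above them. The means, -1.43 ± 1.06 and -0.73 ± 0.32 (SD, n = 3 each), differed by 0.69 (exact permutation p = 0.4), and by 1.17 when VHL-KO replicate 4 and double-KO replicate 3 were left out.

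The light chain Slc7a9 over its heavy chain Slc3a1 was at -2.06 ± 0.74 and -1.92 ± 0.40 (SD, n = 3 each), a difference of 0.15 (exact permutation p = 0.7) that is smaller than the spread in either group. Slc7a7 over Slc3a2 was at -0.23 ± 0.23 and -0.48 ± 0.22 (exact permutation p = 0.4, n = 3 each), and Slc7a8 over Slc3a2 at -0.71 ± 0.70 and -0.57 ± 0.23 (exact permutation p = 0.9, n = 3 each). Slc6a18 over Slc6a19, the late over the early neutral carrier, was at 0.68 ± 0.52 and 0.26 ± 0.34 (exact permutation p = 0.5, n = 3 each). For none of the heteromers did the ratio of light to heavy chain separate the labels.

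**Figure D3:**
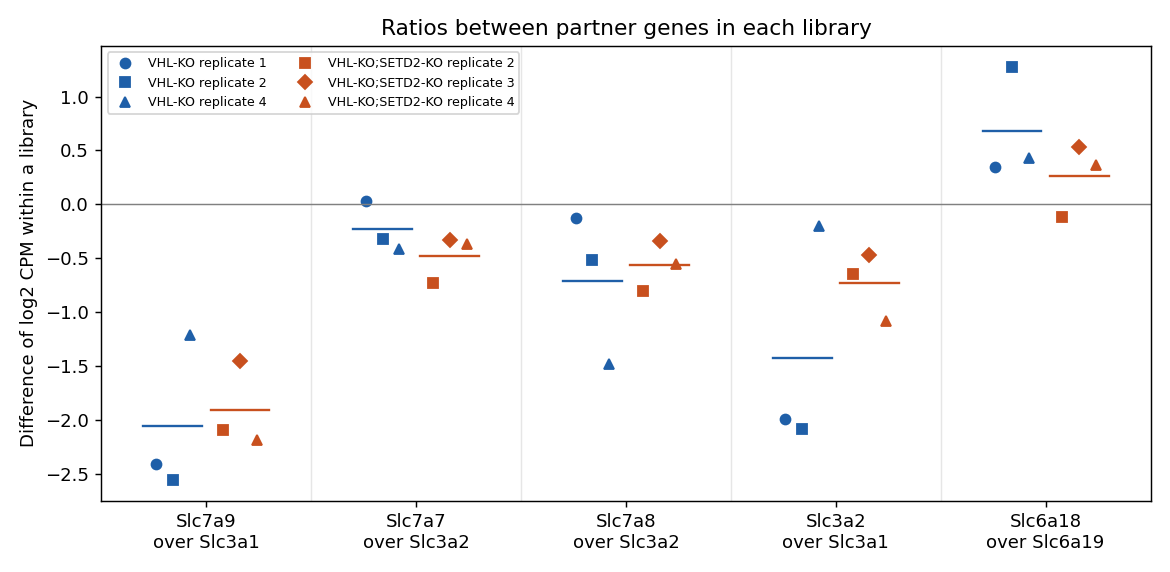
Difference of log2 CPM between the genes of each pair within each library, by group and replicate, with lines at the group means. The groups overlap for every pair, and VHL-KO replicate 4 lies away from replicates 1 and 2 for Slc3a2 over Slc3a1 and Slc7a9 over Slc3a1.

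The members were next set beside other genes of the proximal tubule, in lists chosen, like the members, with earlier results of these data known. Of the 14 proximal tubule markers, 13 had lower means in the double-KO libraries and 4 were called lower at an unadjusted p, with 0 higher and a median log2 fold change of -1.06, close to the members' -0.92. They were Slc22a6, the organic anion transporter OAT1 (-1.93), Slc34a1, the sodium-phosphate cotransporter (-1.66), Slc13a3, a dicarboxylate carrier (-1.47) and the water channel Aqp1 (-1.39), all with an edgeR adjusted p of 0.625. The summed level of the 14 was 19440 to 32130 CPM in the VHL-KO and 8733 to 12630 CPM in the double-KO libraries, without overlap. Without VHL-KO replicate 4 the markers called lower numbered 9 of 14, with a median of -0.78, where 7.14% of all genes were called lower. In that fit Slc34a1 (-0.95), Slc13a3 (-0.77) and Aqp1 (-0.69) had smaller folds. Without double-KO replicate 2 or 4 only 1 of the 14 was called lower (1.37% and 1.78% of all genes). With library sizes taken without mitochondrial genes or without the 20 highest genes, 2 were called lower (2.07% and 2.42%). Of 6 genes listed as regulators of the proximal tubule 4 were called lower, among them Hnf4a (-1.04), a transcription factor of tubular and hepatic genes. Another was Cdhr5 (-1.54), a brush-border cadherin, and both had an edgeR adjusted p of 0.625. Maf (-0.14) and Ppara (-0.02) were not called. Both turned higher with library sizes without mitochondrial genes, where 1 of the 6 was called lower (2.07% of all genes). Without double-KO replicate 2 or 4, 0 and 1 of the 6 were called lower. Without VHL-KO replicate 4, Cdhr5 was at -0.68 and no longer called. Without double-KO replicate 3, 3 of the 14 markers (median -1.4) and 1 of the 6 regulators were called lower, where 2.2% of all genes were.

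Relative to the mean of these 14 markers in the same library, the median member was at -2.72, -2.91 and -1.23 in the VHL-KO and -2.28, -1.87 and -2.39 in the double-KO libraries (log2 units). Here the labels did not separate, with a difference of 0.11 (exact permutation p = 1, n = 3 each). Slc3a1 was at -0.61 ± 0.11 in the VHL-KO and -0.97 ± 0.09 in the double-KO libraries (SD), and Slc6a18 at -0.69 ± 0.17 and -1.05 ± 0.20. For these 2 genes every double-KO library remained below every VHL-KO library, by 0.35 and 0.36 on average, though for Slc6a18 the highest double-KO value, -0.88, lay just under the lowest VHL-KO value, -0.87, and both reached the smallest p possible (exact permutation p = 0.1, n = 3 each, adjusted p = 0.45 over the 9 members). Of the other members Slc7a8 was relatively higher by 0.48, Slc3a2 by 0.34, Slc7a7 by 0.10, Slc6a19 by 0.06 and Slc1a1 by 0.04, and Slc7a9 and Slc6a13 were relatively lower, with differences of -0.21 and -0.34. None of these 7 reached the smallest p (exact permutation p of 0.3 to 1, n = 3 each).

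**Figure D4:**
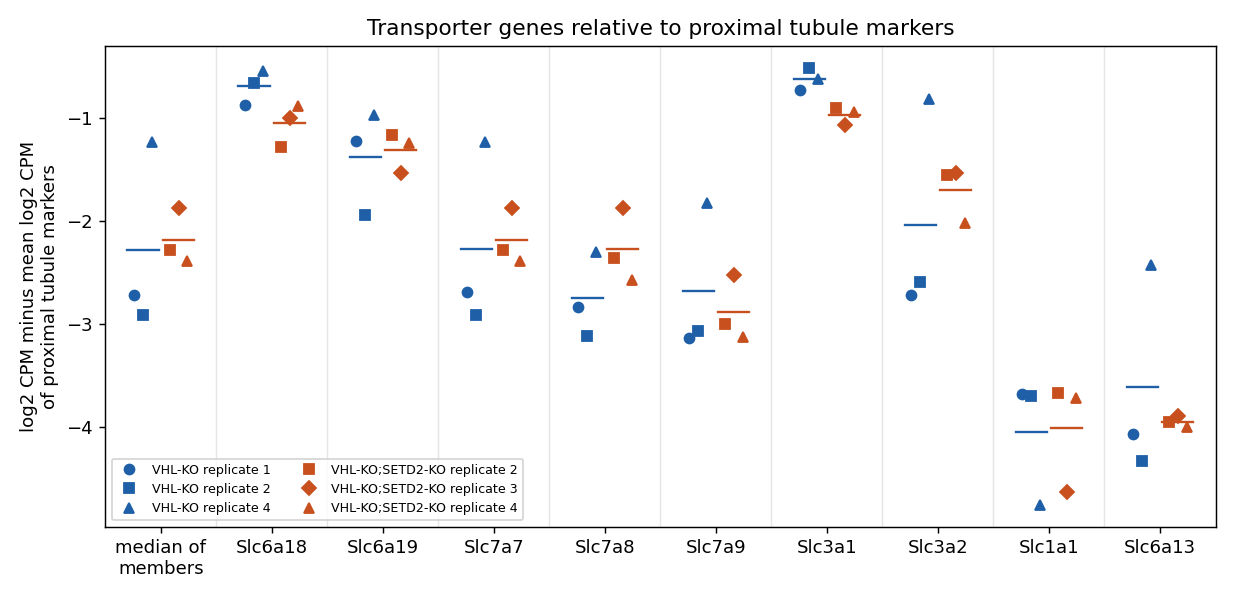
Log2 CPM of the median member and of each member minus the mean log2 CPM of the 14 proximal tubule markers in the same library, with lines at the group means. The groups overlap except for Slc6a18 and Slc3a1, where all VHL-KO;SETD2-KO libraries lie below the VHL-KO libraries.

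Markers of podocytes and of endothelial cells had higher means in the double-KO libraries. All 6 podocyte markers had higher means there and 4 were called higher, among them Wt1 (1.5), Ptpro (1.27) and Nphs1 (1.09), with an edgeR adjusted p of 0.625. Their summed level was 5006 and 4453 CPM in double-KO replicates 2 and 4 but 2036 CPM in replicate 3, within the VHL-KO range of 1488 to 2123 CPM. Leaving out double-KO replicate 2 or 4 left 0 podocyte markers called, where 1.19% and 1.24% of all genes were called higher. The 6 endothelial markers also had higher means, with a median of 1.03. None (0) was called with all 6 libraries. Without double-KO replicate 3, 5 were called higher (2.37% of all genes), and 4 with library sizes without mitochondrial genes (5.74%). Without both VHL-KO replicate 4 and double-KO replicate 3, 6 were called higher (13.4%). They summed to 5297 and 4562 CPM in double-KO replicates 2 and 4 and 1774 CPM in replicate 3, against 1470 to 2283 CPM. In double-KO replicate 3 the podocyte and endothelial sums lay in the VHL-KO range, but its proximal tubule sum, 12630 CPM, lay below every VHL-KO library. Slc3a1 (299 CPM), Slc6a18 (314 CPM) and Slc1a1 (25.1 CPM) were below every VHL-KO library there, and Slc6a19, Slc7a7, Slc7a8, Slc7a9, Slc3a2 and Slc6a13 were inside the VHL-KO range. The part of cell composition in the members' differences was not tested.

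**Figure D5:**
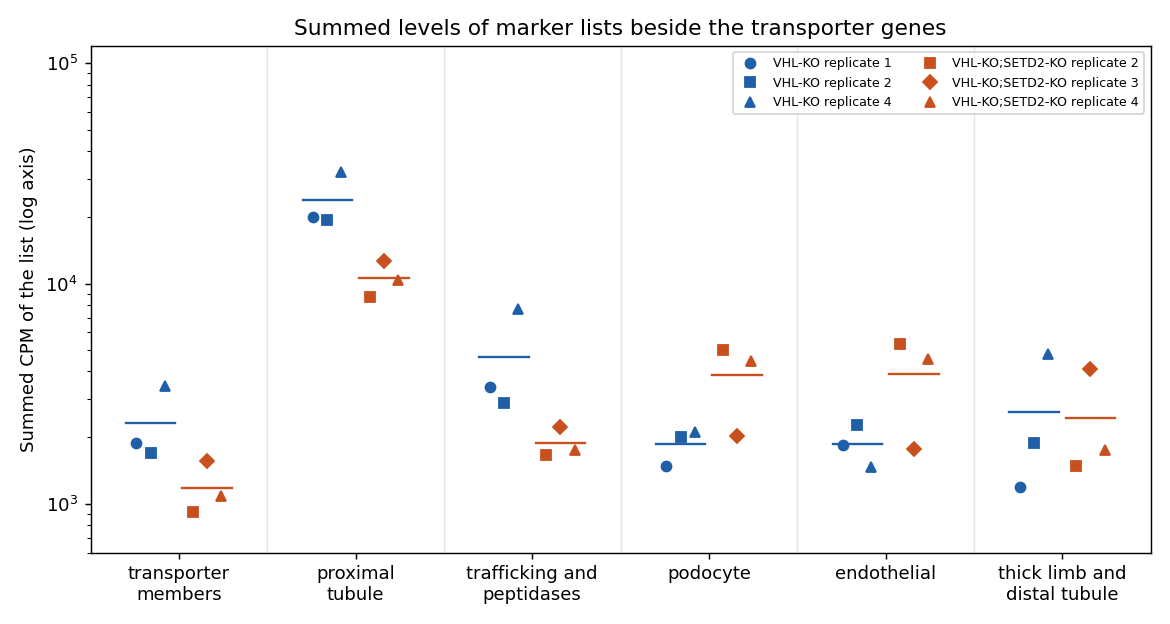
Summed CPM (log axis) of the 9 members and of marker lists in each library, with lines at the group means. Proximal tubule sums do not overlap between the groups, whereas podocyte and endothelial sums are raised in VHL-KO;SETD2-KO replicates 2 and 4 and lie near the VHL-KO libraries in replicate 3.

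Other lists were less uniform. Of 6 markers of the thick limb and distal tubule, Calb1, a calcium-binding protein of the distal tubule, was called higher (1.87) and the summed level overlapped between the groups (1195 to 4793 and 1481 to 4083 CPM). Of 7 collecting duct markers, the intercalated cell genes Atp6v1g3 (1.81) and Slc26a4 (1.47) were called higher, and Slc4a1, also of intercalated cells, was at 0.16. The other 4, Aqp2 (-1.86), Fxyd4 (-1.8), Aqp3 (-1.06) and Hsd11b2 (-0.43), had lower means and were not called. The sums of the 7 were 55.0 to 556 and 80.1 to 269 CPM. Of 6 macrophage markers, the complement genes C1qa (-2.08) and C1qb (-2.03) were called lower, with sums of 62.5 to 191 and 54.3 to 115 CPM. None of 6 stromal markers was called, and their sums were 76.8 to 414 and 81.0 to 195 CPM. Of 5 tested injury markers Spp1, osteopontin, was called higher (1.88), with 1196 CPM in double-KO replicate 3 and 231 and 243 CPM in the others, and Havcr1, kidney injury molecule 1, lower (-2.25) at 1.21 to 1.94 against 0.159 to 0.438 CPM, where the lowest value is 3 counts, the detection floor. All have an edgeR adjusted p of 0.625. Several of these lists turned on 1 library. Without VHL-KO replicate 4 the median log2 fold change went from -0.78 to 0.67 for stroma, with 2 called higher, where 8.29% of all genes were. It went from -0.43 to 1.54 for collecting duct, from -0.67 to 0.40 for injury and from 0.22 to 0.88 for the thick limb and distal tubule. Calb1 (1.57), Slc26a4 (1.48), Spp1 (1.5), C1qa (-0.94) and C1qb (-1.10) were not called in this fit. Without double-KO replicate 3 the medians were -1.18 for stroma, -1.43 for collecting duct, -0.85 for injury and -0.37 for the thick limb and distal tubule. Cdh16, whose promoter drives the Cre, was at 530, 516 and 2251 CPM in the VHL-KO and 331, 682 and 358 CPM in the double-KO libraries (log2 fold change -1.27 ± 0.70, SE, edgeR adjusted p = 0.625), and Vhl was at 11.8 to 25.8 CPM over all libraries (adjusted p = 0.833).

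Brush-border carriers depend on accessory proteins, and peptidases at the same membrane release the amino acids that they take up. Of 7 such genes all had lower means, though Tmem27 turned higher when mitochondrial genes or the 20 highest genes were left out of the library sizes, and 4 were called lower: Anpep, aminopeptidase N (-1.51), Ggt1, gamma-glutamyltransferase (-2.27), the scaffold Slc9a3r1, NHERF1 (-1.74), and Dpep1, a dipeptidase (-1.92), each with an edgeR adjusted p of 0.625. Without VHL-KO replicate 4 the median of the 7 went from -1.51 to -0.65, with Anpep at -1.13, Ggt1 at -1.10, Slc9a3r1 at -0.65 and Dpep1 at -0.29, the last no longer called. Without double-KO replicate 3 the median was -1.55, and 2 of the 7 were called lower, where 2.2% of all genes were. Tmem27, collectrin, which carries Slc6a19 and Slc6a18 to the brush border, was at 1073, 705 and 251 CPM in the VHL-KO and 551, 804 and 528 CPM in the double-KO libraries. Its groups overlapped widely (log2 fold change -0.11 ± 0.58, SE, edgeR adjusted p = 0.953).

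The 32 other amino acid transporters of the list were mixed in direction gene by gene. Of the 27 that could be tested, 14 had lower and 13 higher means, with a median log2 fold change of -0.06. Without overlap 7 were lower and 3 higher, against 11.0% and 9.62% of all tested genes. Summed over the list, levels were 1708 to 2549 CPM in the VHL-KO and 978 to 1516 CPM in the double-KO libraries. These sums did not overlap, and neither did those of the members (1695 to 3428 and 916 to 1559 CPM). The 4 called lower were Slc38a3, the glutamine carrier SNAT3 of the basolateral membrane (-1.28 ± 0.47), Slc1a4, the neutral carrier ASCT1 (-1.48 ± 0.55), Slc6a20b, an imino acid carrier (-1.08 ± 0.40), and Slc36a1, a proton-coupled carrier of small amino acids (-0.95 ± 0.37). None of the 4 overlapped between the groups. Slc6a20b was at 193, 202 and 265 against 82.2, 126 and 103 CPM, but it has a close paralog in Slc6a20a, which was at 4.51 to 12.5 CPM, and how the counting split reads between them is not known.

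Called higher were Slc1a3, a glutamate carrier (1.78 ± 0.68), and Slc7a6, a light chain of the y+L system like Slc7a7 (1.13 ± 0.49), both with an edgeR adjusted p of 0.625 like the 4 above. Both were scarce, at 0.185 to 0.653 against 0.902 to 2.13 CPM and at 2.99 to 7.39 against 7.97 to 12.3 CPM. The lowest Slc1a3 value was under the floor of its library. Without double-KO replicate 2 0 of these transporters were called lower, and without double-KO replicate 3 or 4 0 were called higher.

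Cells short of amino acids raise a set of ATF4 targets, among them Asns, Chac1 and Trib3. Of 12 genes of this response 6 had higher and 6 lower means, with a median of -0.01, and the only call was Shmt2, mitochondrial serine hydroxymethyltransferase, which was lower (-1.87 ± 0.63, SE, edgeR adjusted p = 0.625). It was at 239, 226 and 897 CPM in the VHL-KO and 99.4, 141 and 132 CPM in the double-KO libraries, without overlap. Without VHL-KO replicate 4 the median of the list was 0.31. Asns (1.15) and Phgdh (1.19) were then called higher (edgeR adjusted p = 0.126 and 0.231), where 8.29% of all genes were. Shmt2 was at -0.91 and still called lower, where 7.14% were. Without double-KO replicate 3 the median of the list was -0.21 and 0 of the 12 were called higher.

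The genes whose centred log2 CPM followed the mean of the 9 members most closely over the 6 libraries were Slc25a26, a mitochondrial carrier (root mean square difference 0.0481), LOC102631757 (0.0572), the deacetylase Hdac6 (0.0666), Eps8l2, an actin-binding protein (0.0681), and Hadh, an enzyme of fatty acid oxidation (0.0768). The members themselves lay farther from their own mean, from 0.234 (Slc6a19) to 0.699 (Slc1a1). The shared pattern was 0.19, -0.05 and 1.13 in the VHL-KO and -0.73, 0.01 and -0.54 in the double-KO libraries, so its main features were the high VHL-KO replicate 4 and the low double-KO replicate 2.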

How the data were processed

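The authors deposited raw counts per gene symbol for 6 libraries. Per the labels, HISAT2 2.0.4 and GRCm38 are named in the submitters' processing notes, and the counting program, annotation and use of strand are not given in the sources used here. No per-sample column was left out (0). The 14611 genes passing filterByExpr were fitted with edgeR 4.0.16 (R 4.3.3, quasi-likelihood test, TMM scaling) on genotype alone. A call needed a p under 0.05, unadjusted or Benjamini-Hochberg adjusted over all tested genes, with a change of at least 1.5-fold. CPM values use TMM-scaled library sizes, except that floors use total counts. Log2 CPM uses a prior count of 2. Single values were compared by two-sided exact permutation over libraries (scipy). No label says that libraries are separate animals. The study gives 3 mice per group, and p-values measure the spread between these libraries. Floors hold for counting error alone, as PCR copies were not marked by molecular identifiers.

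Positions and exonic lengths came from GENCODE M21 (GRCm38), promoter sequences from RefSeq (GRCm38.p6). The members and lists were chosen with earlier results of these data known. Named were all members, the genes of each list with an unadjusted p under 0.05 (at most 6), Setd2, Vhl, Cdh16 and the 5 genes closest to the members' mean pattern. Xist, the genes sharing exons with members, Tmem27, Slc6a20a and the genes of the other observations were named after their values were seen. Alternatives were RLE scaling, library sizes without mitochondrial genes or the 20 highest genes, other filters, DESeq2 1.42.0, limma 3.58.1, a replicate block and leaving libraries out. The fits were tested on simulated data. Some genes under this rule are not reported here.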

Additional observations from a re-analysis of the deposited data

How the results depend on the processing

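The number of members called lower at an unadjusted p, 2, was 0 with library sizes without mitochondrial genes, 1 without the 20 highest genes, 5 with limma-voom and quality weights, 0 with the replicate block and 0 to 5 with libraries left out. Over all genes the share called lower, 4.68%, was 2.07%, 2.42%, 10.5% and 0.370% under the first 4 of these. The adjusted count, 0, became 5 with quality weights, 3 with DESeq2 without VHL-KO replicate 4 and 0 to 5 with libraries left out. The count without overlap, 3, ranged from 2 to 8. Of the 153 log2 fold changes of members under alternatives, 121 kept direction and side of the threshold, 13 lost the call, 13 gained it and 6 reversed. Slc7a8 reversed to 0.12 and 0.052 under the 2 library-size alternatives, to 0.082 with DESeq2 without VHL-KO replicate 4 and ranged from -0.80 to 0.085 with libraries left out, and Slc3a2 reversed to 0.29 with the same DESeq2 fit and ranged from -1.12 to 0.29. Library sizes without mitochondrial genes moved the median of all genes to 0.34 and that of the members to -0.53, which is -0.87 relative to it, and those without the 20 highest genes gave 0.28, -0.58 and -0.86.

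The other amino acid transporters called lower, 4, were 0, 1, 2, 9 and 0 without mitochondrial genes, without the 20 highest genes, without a filter, with quality weights and with the replicate block, and 0 to 8 with libraries left out. Those called higher, 2, were 1 with RLE scaling, 4 without mitochondrial genes, 5 without a filter, 1 with at least 10 counts, 1 with DESeq2, 5 with quality weights, 5 with DESeq2 without VHL-KO replicate 4, 0 with the block, and 0 to 5 with libraries left out. The cause of these shifts was not tested.

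Relative to proximal tubule markers, the median member reversed to -0.26 within paired numbers (replicate block) and ranged from -0.21 to 0.64 with libraries left out. Slc7a7 gave -0.26 and Slc3a2 -0.080 under the block. With libraries left out, Slc6a19 ranged from -0.22 to 0.38, Slc7a7 from -0.22 to 0.62, Slc7a9 from -0.44 to 0.22, Slc1a1 from -0.31 to 0.35 and Slc6a13 from -0.70 to 0.25. The ratio of Slc7a9 over Slc3a1 reversed to -0.26 under the block and ranged from -0.10 to 0.57, and that of Slc7a8 over Slc3a2 ranged from -0.36 to 0.43. Numbers 2 and 4 occur in both groups, but deviations from the group means correlated at 0.17 and -0.32, and no source says that a number marks a shared batch or day. The block changed no other call of a member than Slc3a1 and Slc6a18, which were lost.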

Other observations

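Among the other amino acid transporters, replicate 3 under the label VHL-KO;SETD2-KO (double-KO) differed most from its group in Slc7a13, a cystine and glutamate carrier of the late proximal tubule, and its relative Slc7a12. Slc7a13 was at 875, 1155 and 214 CPM in VHL-KO replicates 1, 2 and 4 and at 290 and 300.3 CPM in double-KO replicates 2 and 4, but at 2.42 CPM in replicate 3. Slc7a12 was at 19.7 CPM in that replicate and at 0.280 to 3.14 CPM in the others. This is also the library with Xist counts. With all libraries neither gene passed (edgeR adjusted p = 0.650 and 0.625), and no member showed such a gap in this library, where Slc1a1 was lowest at 25.1 CPM.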
